A study of Homo sapiens with 10 samples.

Results

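The 50 DNA repair and checkpoint genes described here were taken by name from a list drawn up with earlier results of these data known, and all 50 were listed in both deposited tables, among 13029 genes of the *ZMAT3* table and 17642 of the siRNA table. RNA-seq had been done in HCT116 cells, a human colorectal cancer line, in 10 libraries. The *ZMAT3* experiment held 3 *ZMAT3*-WT and 3 *ZMAT3*-KO libraries, both from single-cell clones, where the knockout had been made with a pair of sgRNAs around the p53 response element in the gene and came from a single clone, so its p-values measure the spread between cultures of a clone and not between clones. The labels of those 6 libraries also hold EV and unt, abbreviations whose meaning is not given in the sources used here. In the siRNA experiment, 2 libraries came from cells transfected for 72 hr with a control siRNA (siCTRL) and 2 from cells transfected with a pool of 4 siRNAs against p53 (sip53). The paper states that the region between the sgRNAs was deleted only in part. *ZMAT3* is a p53 target gene that encodes an RNA-binding protein, and its mRNA was reduced but not absent in *ZMAT3*-KO. The first comparison asks how the transcriptome of cells with reduced *ZMAT3* mRNA differs from that of *ZMAT3*-WT cells. The second asks how the transcriptome changes when p53 itself is depleted.

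Cells repair DNA by routes that divide the work by lesion. Double-strand breaks are rejoined end to end by non-homologous end joining or copied from the sister chromatid by homologous recombination, crosslinks between strands need the Fanconi anaemia pathway, and damaged or mispaired bases are cut out by base excision, nucleotide excision or mismatch repair. The checkpoint kinases *ATM*, *ATR*, *CHEK1* and *CHEK2* sense breaks or stalled replication and hold the cell cycle meanwhile, and p53 is among the proteins they act on. HCT116 is known as a mismatch repair-deficient line with intact p53.

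The labels were checked first on genes outside the list. *ZMAT3* was at 5.00, 5.20 and 5.26 log2 CPM (log2 of the count scaled to a common library total) in the *ZMAT3*-WT libraries and at 2.25, 2.34 and 2.20 in the *ZMAT3*-KO libraries. *CDKN1A*, the p21 gene that p53 activates, was at 525 and 481 FPKM (fragment counts scaled to the length of the transcript and the size of the library) with siCTRL and at 34.2 and 37.7 with sip53. Neither table gives read counts, so sequencing depth is unknown for all 10 libraries. Of 8 colon epithelial markers, 6 were listed in the *ZMAT3* table, and their summed level was 5013 to 5286 CPM in *ZMAT3*-WT and 2930 to 3011 CPM in *ZMAT3*-KO, with *KRT8*, *KRT18* and *KRT20* called lower and *EPCAM*, *CDH1* and *CDX2* not called. Among the siRNA values 7 of 8 were listed, with a summed level of 2775 to 3031 FPKM with siCTRL and 2776 to 3204 with sip53, *VIL1* at 0.13 to 0.22 FPKM, *EPCAM* called higher with sip53 at the unadjusted p of 0.05 used for that table (205 and 191 against 281 and 319 FPKM, adjusted p = 0.25) and *KRT8*, *KRT18*, *KRT20*, *CDH1* and *CDX2* not called. Of 10 markers of blood, vessel and connective tissue cells, 3 were listed in the *ZMAT3* table, with a summed level of 15.3 to 16.0 CPM in *ZMAT3*-WT and 16.8 to 17.4 in *ZMAT3*-KO, where *CD68* was higher (1.97-fold, adjusted p = 4.1e-05), *COL1A1* was higher (1.12-fold, adjusted p = 0.027) and *ACTA2* was lower (0.634-fold, adjusted p = 0.00026). Among the siRNA values 4 were listed, with a summed level of 27.7 to 39.7 FPKM with siCTRL and 19.4 to 35.8 with sip53. Of these, *ACTA2* was at 26.3 and 21.5 FPKM against 1.74 and 1.68 (adjusted p = 0.010) and *CD68* at 7.97 and 2.06 against 11.6 and 26.9 (called higher, adjusted p = 0.27), while *COL1A1* was not called and *VWF* lay at 0.08 to 0.16 FPKM, under the minimum for the test. The part of these markers in the members' values was not tested.

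Stretches before the start sites of the members with the largest changes are shown first to place the motif counts given for the members' promoters. They are RefSeq sequences of GRCh38.p14, 5′ to 3′ on the strand of the gene, and capitals mark the CCAAT box on either strand (CCAAT or its reverse complement ATTGG). The first 3 belong to the members that were lowest in *ZMAT3*-KO relative to *ZMAT3*-WT, and the fourth to the member that was highest. Each is the longest run without a GENCODE exon in the 250 bases before the RefSeq start, at chr11:125626035-125626228 (+), chr3:142578734-142578983 (-), chr15:90717142-90717345 (+) and chr14:45135680-45135929 (+).
CHEK1: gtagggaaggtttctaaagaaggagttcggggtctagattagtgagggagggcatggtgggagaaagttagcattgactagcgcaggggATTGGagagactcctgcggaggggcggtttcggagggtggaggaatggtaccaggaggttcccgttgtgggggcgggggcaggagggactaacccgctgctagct
ATR: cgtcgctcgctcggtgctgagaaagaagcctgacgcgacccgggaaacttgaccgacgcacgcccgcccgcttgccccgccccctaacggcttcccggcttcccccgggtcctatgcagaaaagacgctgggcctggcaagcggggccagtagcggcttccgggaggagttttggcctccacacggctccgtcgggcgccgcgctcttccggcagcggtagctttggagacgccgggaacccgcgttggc
BLM: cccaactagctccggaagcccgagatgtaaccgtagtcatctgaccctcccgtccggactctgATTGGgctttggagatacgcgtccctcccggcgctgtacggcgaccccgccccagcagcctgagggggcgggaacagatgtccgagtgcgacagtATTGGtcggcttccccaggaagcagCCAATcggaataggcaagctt
FANCM: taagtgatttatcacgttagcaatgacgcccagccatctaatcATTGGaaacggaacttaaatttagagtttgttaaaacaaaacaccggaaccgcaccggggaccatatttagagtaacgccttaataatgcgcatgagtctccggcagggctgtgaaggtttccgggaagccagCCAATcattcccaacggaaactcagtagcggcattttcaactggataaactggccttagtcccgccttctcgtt
*CHEK1* had 1 CCAAT box, 101 bases before its start, and *ATR* had none. *BLM* had 3, of which the nearest lay 17 bases before its start, and *FANCM* had 2. For the 3 members that were called in the siRNA experiment, 30 bases around the match are shown, at chr12:4538807-4538836 (+), chr1:46247610-46247639 (+) and chr14:75051503-75051532 (-), with the CCAAT box of *RAD51AP1* and *RAD54L* and the NRF1 word of *MLH3* in capitals.
RAD51AP1: atggctggtgatgATTGGacgactggtaac
RAD54L: gcccagactcctcATTGGgcgcagcactat
MLH3: aacaactggtGCGCATGCGCactggtgtct

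Promoter windows of 250 bases were listed for 44 of the 50 members. The CCAAT box was in 19 of the 44 (43.2%), against 33.0% of all 27303 promoters and 35.3% of the 9729 promoters of genes in the *ZMAT3* table. Among the 18 members with a window that were called lower in *ZMAT3*-KO, 8 held it: *BLM*, *CHEK1*, *CHEK2*, *MSH6*, *PALB2*, *PMS1*, *PMS2* and *XRCC3*. The E2F words searched (TTTGGCGC, TTTCCCGC, TTTGGCGG and TTTCGCGC) were in *FANCC* and *MSH3* only, 4.55% of members against 2.91% of all promoters and 4.88% of those in the *ZMAT3* table, and both matches in *MSH3* overlapped each other. TTTGAA, the CHR element of cell cycle genes, was in *ATM*, *BRIP1*, *FANCC* and *XRCC1* (9.09%, against 13.6% and 7.86%). The NRF1 word GCGCATGCGC was in *MLH3* alone (2.27%, against 1.13% and 2.00%), and the AP-1 word TGAGTCA was in no member window, against 4.16% and 2.36%. All words were searched on both strands, no match to a motif overlapped a match to another, and a match is a description of the letters only.

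The unit of the siRNA values is not stated in the sources used here, and they were read as FPKM. If that reading holds, they are scaled to transcript length, and levels can be compared between members. In siCTRL cells the members ran from 0.440 to 381 FPKM with a median of 10.1, against a median of 11.0 over all 14274 genes tested. The end-joining genes *XRCC6* and *XRCC5*, which encode the Ku dimer that caps broken ends, were at the top with 374 and 387 FPKM and with 208 and 211 FPKM in the 2 libraries. *ERCC1* (108 and 94.2 FPKM) and *PARP1* (101 and 96.9 FPKM) followed and overlapped each other. *CHEK1* had rank 10 with 30.1 and 35.5 FPKM, below *ERCC2* (44.8 and 37.5 FPKM) without overlap and just overlapping *FANCI* (23.2 and 30.4 FPKM). Near the bottom were *BRCA2*, a central protein of homologous recombination, at 1.89 and 1.62 FPKM, and *FANCB*, *FANCM* and *XRCC2*, which lay between 1.70 and 2.38 FPKM and overlapped or touched one another. *MSH3*, a mismatch-recognition protein, was lowest at 0.440 FPKM in both siCTRL libraries and was at 0.920 and 0.480 FPKM with sip53.

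**Figure D1:**
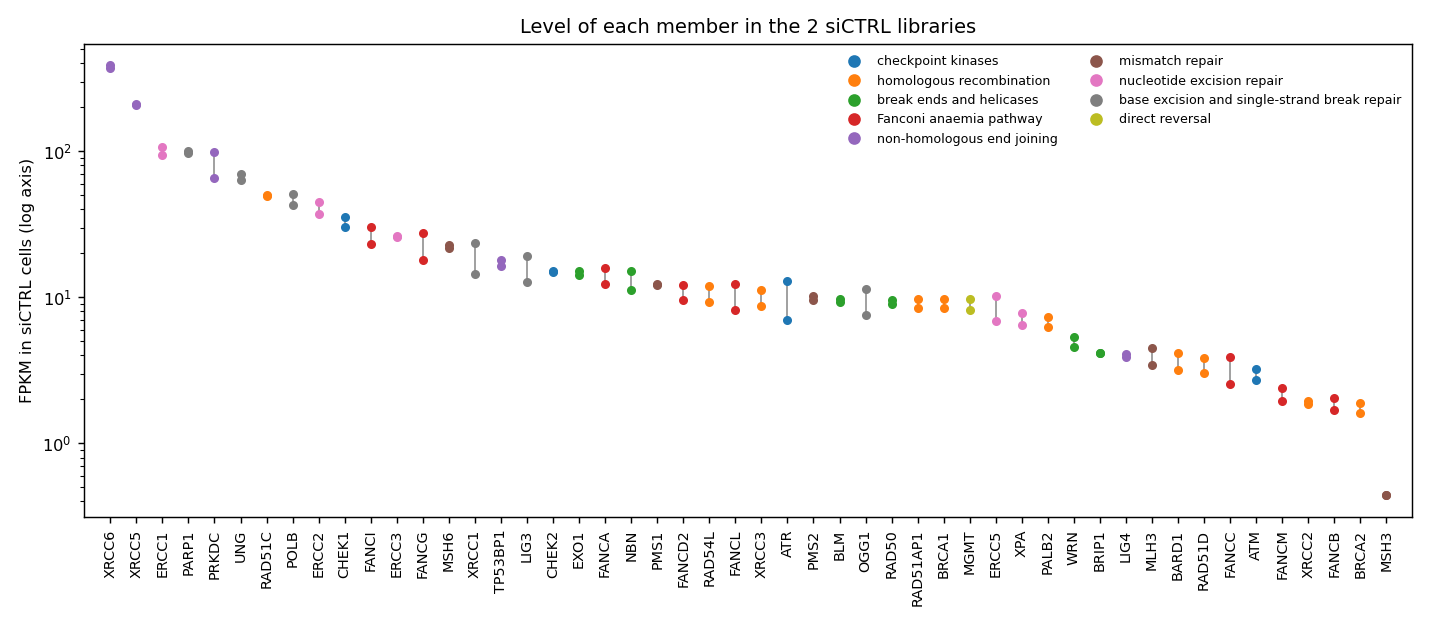
FPKM (log axis) of each of the 50 members in the 2 siCTRL libraries, ordered by their mean and coloured by role, with a line joining both values of a gene. *XRCC6* and *XRCC5* lie above 200 FPKM in both libraries, and *MSH3* lies alone under 1 FPKM.

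Between the clones, the members were more often lower than higher in *ZMAT3*-KO. All 50 were tested with limma (two-sided, with Benjamini-Hochberg adjustment over the 13029 genes), and 20 were called lower and 2 higher at an adjusted p of 0.05. That is 40% lower against 30.1% of all genes, and 4% higher against 28.7%, while calls in either direction took in 22 members against 58.8% of all genes. Most changes were small, and in bulk libraries fewer cells with a transcript cannot be told apart from less of it per cell. The median log2 fold change of the members was -0.06, against -0.01 over all genes, and 35 of 50 were below 0. A single member, *CHEK1*, also passed 1.5-fold, where 4.37% of all genes did so downward and 4.6% upward, with 0 members upward. The median SE was 0.041 on the log2 scale for the members and 0.047 over all genes. The 95% interval lay within 1.5-fold of no change for 48 of the 50 members, and for 10736 of all 13029 genes. The exceptions among the members were *CHEK1* and *FANCM*, which had the largest changes. That count depends on the size of a change as well as on its precision.

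**Figure D2:**
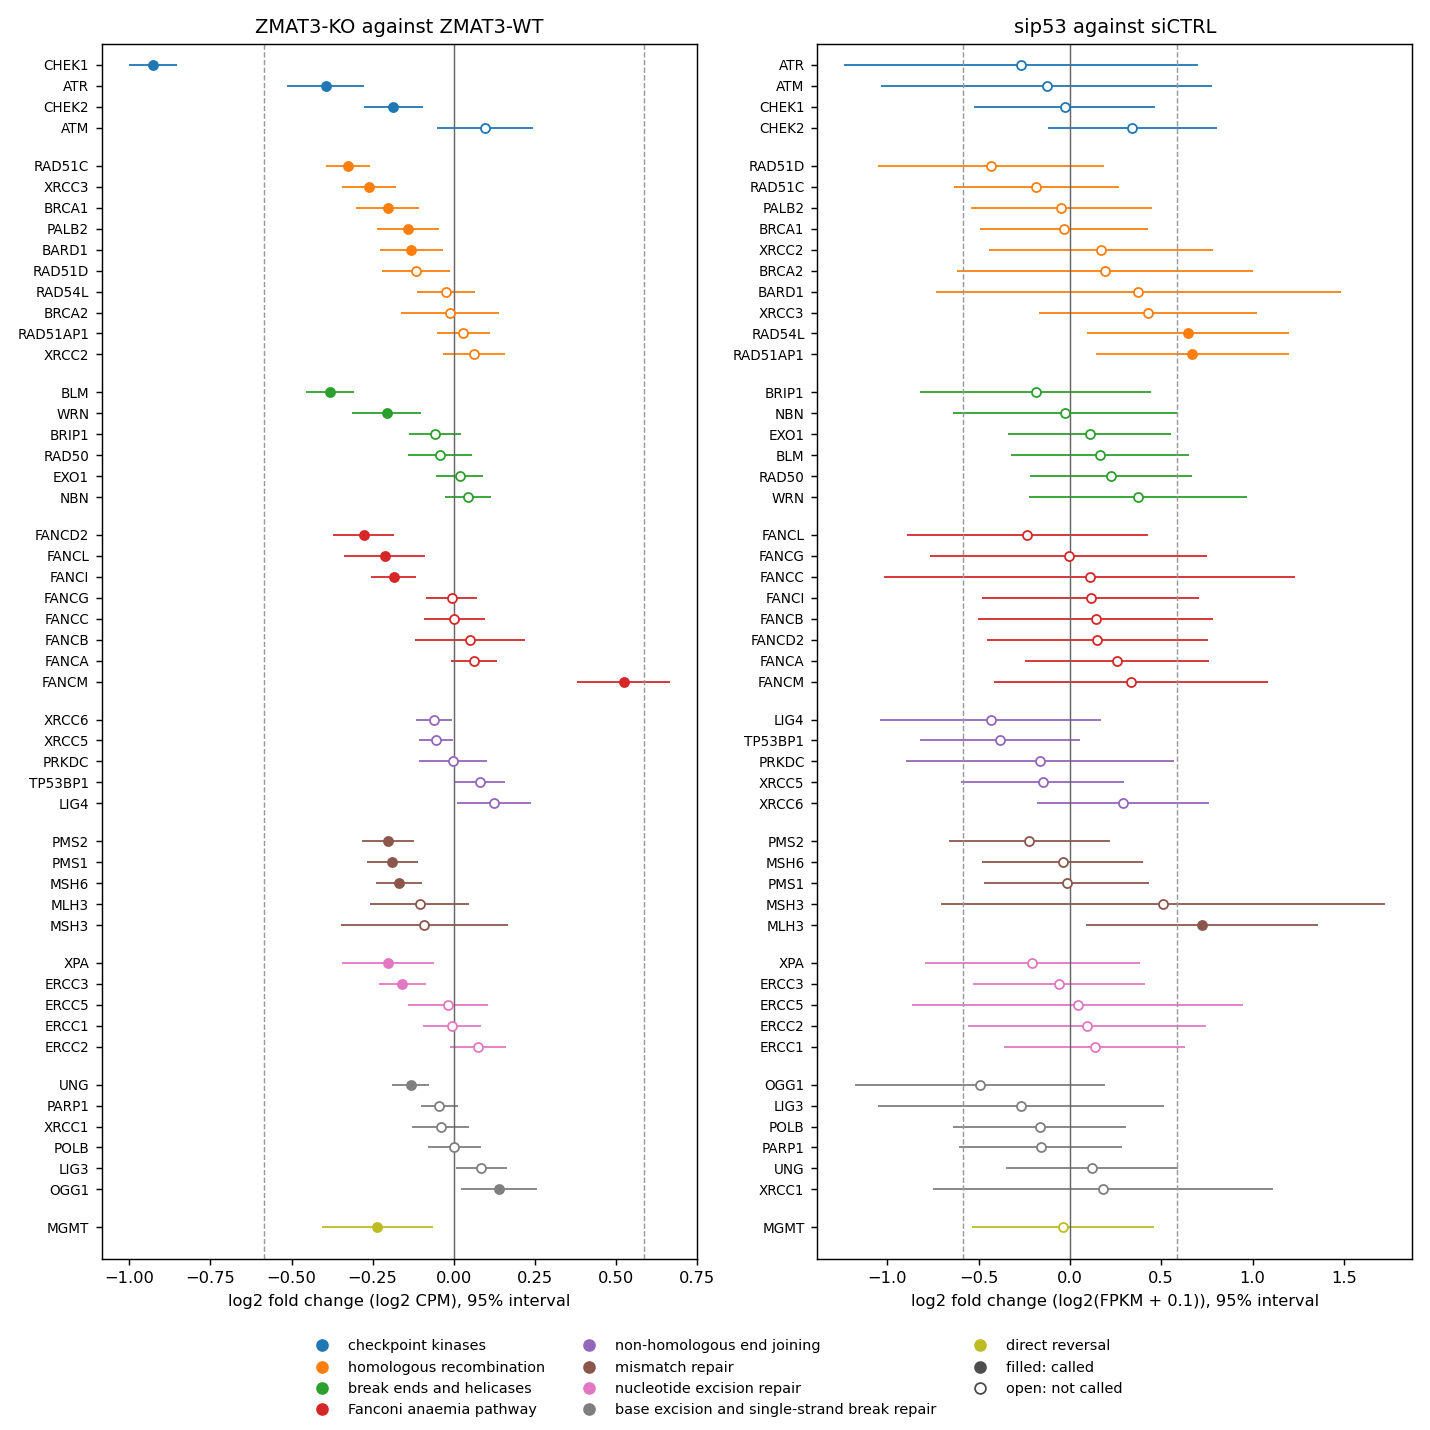
Log2 fold change with its 95% interval for the 50 members, by role, in *ZMAT3*-KO against *ZMAT3*-WT (left, log2 CPM, 3 libraries a group) and sip53 against siCTRL (right, log2(FPKM + 0.1), 2 libraries a group). Filled points were called at an adjusted p of 0.05 on the left and an unadjusted p of 0.05 on the right, and dashed lines mark 1.5-fold. The left panel has 20 called members below 0 and 2 above it, the right panel 3 above 0 and none below, with wider intervals.

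Of the 4 checkpoint kinases 3 fell (75%, against 30.1% of all genes called lower), and *CHEK1* fell furthest of all members. Each role holds few members, and none was tested as a set. *CHEK1* (chromosome 11, 125625163 to 125676255, hg38), the kinase that *ATR* activates at stalled replication forks, was at 6.21, 6.24 and 6.28 log2 CPM in *ZMAT3*-WT and at 5.30, 5.34 and 5.31 in *ZMAT3*-KO. The groups lay far apart, with an SD of 0.04 in *ZMAT3*-WT and 0.02 in *ZMAT3*-KO (n = 3 each). Its log2 fold change was -0.93 (SE 0.034, 0.526-fold, adjusted p = 2.2e-10), and it stayed between -0.95 and -0.91 when each library was left out in turn. *ATR* itself (chromosome 3, 142449007 to 142578733), the sensor of single-stranded DNA, was at 5.48, 5.32 and 5.40 log2 CPM against 5.02, 5.10 and 4.90, again without overlap, and fell by 0.39 on the log2 scale (SE 0.055, adjusted p = 5.3e-05). *CHEK2*, which acts downstream of *ATM* at breaks, fell by 0.19 (adjusted p = 0.0020), and it has near-identical pseudogene copies that could take part of its reads. *ATM* was at 3.46, 3.43 and 3.53 against 3.44, 3.70 and 3.56 log2 CPM, with overlapping groups and a log2 fold change of 0.10 (SE 0.068, adjusted p = 0.24). The first 53 bases of the annotated *CHEK1* span overlap *STT3A* on the same strand, and *STT3A* had a log2 fold change of 0.17, opposite in sign.

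Among the 10 homologous recombination genes, 5 were lower (50%, against 30.1% of all genes) and none higher (against 28.7%). *RAD51C* (chromosome 17, 58692573 to 58735611), a gene of homologous recombination that is also mutated in hereditary ovarian cancer, was at 6.24, 6.28 and 6.29 log2 CPM in *ZMAT3*-WT and at 5.95, 5.92 and 5.97 in *ZMAT3*-KO. All *ZMAT3*-KO values lay under all *ZMAT3*-WT values, and the log2 fold change was -0.32 (SE 0.031, adjusted p = 2.2e-06). Its partner *XRCC3* fell by 0.26 (SE 0.039, adjusted p = 8.8e-05). The related genes *RAD51D* and *XRCC2* did not pass the test: *RAD51D* had a log2 fold change of -0.12 (adjusted p = 0.053) and *XRCC2* one of 0.06 (adjusted p = 0.25). *BRCA1* and *BARD1*, which form a ubiquitin ligase together, fell by 0.20 (adjusted p = 0.0018) and 0.13 (adjusted p = 0.024). *PALB2*, the bridge between *BRCA1* and *BRCA2*, fell by 0.14 (adjusted p = 0.015). The calls of *BARD1* and *PALB2* were lost when *ZMAT3*-WT replicate 2 or *ZMAT3*-KO replicate 1 or 3 was left out, and that of *BARD1* also without *ZMAT3*-WT replicate 3, with adjusted p up to 0.10 for *BARD1* (log2 fold change -0.11) and 0.071 for *PALB2* (-0.12). *BRCA2*, *RAD54L* and *RAD51AP1* had log2 fold changes between -0.02 and 0.03.

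Of the genes that process break ends and unwind DNA, both RecQ helicases fell (33.3%, against 30.1% of all genes) and the other 4 did not pass the test. *BLM* (chromosome 15, 90717346 to 90816166), the helicase that dissolves recombination intermediates, was at 5.74, 5.71 and 5.68 log2 CPM in *ZMAT3*-WT and at 5.32, 5.35 and 5.31 in *ZMAT3*-KO. The groups were far apart, at -0.38 on the log2 scale (SE 0.034, adjusted p = 1.1e-06). *WRN*, its relative, was at 4.62, 4.64 and 4.64 against 4.35, 4.53 and 4.40 log2 CPM, a fall of 0.21 (SE 0.049, adjusted p = 0.0031). *RAD50* and *NBN* of the complex that first binds broken ends, the nuclease *EXO1* and the helicase *BRIP1* had log2 fold changes between -0.06 and 0.05.

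The Fanconi anaemia genes held the member that rose most. *FANCM* (chromosome 14, 45135930 to 45200890), the translocase that brings the core complex to crosslinked DNA, was at 3.57, 3.77 and 3.66 log2 CPM in *ZMAT3*-WT and at 4.13, 4.31 and 4.12 in *ZMAT3*-KO. Every *ZMAT3*-KO value was above every *ZMAT3*-WT value, and the rise was 0.52 on the log2 scale (SE 0.066, 1.44-fold, adjusted p = 2.4e-05). *FANCD2* and *FANCI*, the pair that the core complex ubiquitinates, fell by 0.28 (SE 0.044, adjusted p = 0.00015) and 0.19 (SE 0.032, adjusted p = 0.00030), and *FANCL*, the ubiquitin ligase of the core, fell by 0.21 (SE 0.058, adjusted p = 0.0069). *FANCD2* has near-identical pseudogene copies, and its value is uncertain for that reason. The core members *FANCA*, *FANCB*, *FANCC* and *FANCG* had log2 fold changes between -0.01 and 0.06, and none was called.

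None of the 5 end-joining genes passed the test (limma, adjusted p of 0.05), against 58.8% of all genes in either direction. An unadjusted p under 0.05 was found for 4 of the 5, and for at least the 58.8% of all genes that passed the adjusted threshold. The exact share of all genes at the unadjusted threshold was not counted. The median half-width of their 95% intervals was 0.08 on the log2 scale. *XRCC6* and *XRCC5* had log2 fold changes of -0.06 (SE 0.025, adjusted p = 0.055) and -0.06 (SE 0.024, adjusted p = 0.062), and *PRKDC*, the kinase that Ku recruits, one of -0.003 (adjusted p = 0.97). *LIG4*, the ligase of the route, was at 0.13 (adjusted p = 0.056) and *TP53BP1*, which shields break ends from resection, at 0.08 (adjusted p = 0.068).

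In mismatch repair, 3 of 5 genes fell (60%, against 30.1% of all genes). *PMS2* (chromosome 7, 5970925 to 6009130), the endonuclease subunit, was at 5.43, 5.42 and 5.41 log2 CPM in *ZMAT3*-WT and at 5.20, 5.27 and 5.18 in *ZMAT3*-KO. The groups did not overlap, and the fall was 0.20 (SE 0.037, adjusted p = 0.00048), with near-identical copies of *PMS2* in the genome that make its reads uncertain. *PMS1* fell by 0.19 (adjusted p = 0.00066) and *MSH6*, which recognizes mismatched bases, by 0.17 (adjusted p = 0.00075). *MLH3* and *MSH3* overlapped between groups and had log2 fold changes of -0.10 (adjusted p = 0.22) and -0.09 (adjusted p = 0.53).

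Of 5 nucleotide excision genes 2 fell, of 6 base excision genes 1 fell and 1 rose, and the reversal gene *MGMT* fell. Over all genes, 30.1% were lower and 28.7% higher. *XPA* (chromosome 9, 97674909 to 97697340), which verifies bulky lesions, was at 3.26, 3.27 and 3.28 log2 CPM in *ZMAT3*-WT and at 2.95, 3.12 and 3.13 in *ZMAT3*-KO. The lowest value was that of *ZMAT3*-KO replicate 1: the fall of 0.20 (SE 0.065, adjusted p = 0.017) became 0.14 (adjusted p = 0.082) without it. *ERCC3*, a helicase of the TFIIH complex, fell by 0.16 (adjusted p = 0.0012), while *ERCC1*, *ERCC2* and *ERCC5* had log2 fold changes between -0.02 and 0.07. *OGG1* (chromosome 3, 9749944 to 9788219), the glycosylase for oxidized guanine, was at 3.61, 3.51 and 3.53 log2 CPM in *ZMAT3*-WT and at 3.73, 3.65 and 3.68 in *ZMAT3*-KO. It rose by 0.14 (SE 0.054, adjusted p = 0.042), a call that was lost without *ZMAT3*-WT replicate 2 or 3 or *ZMAT3*-KO replicate 1 or 3, with a rise of at least 0.11 and an adjusted p of up to 0.14. *UNG*, the uracil glycosylase, fell by 0.13 (SE 0.026, adjusted p = 0.00081). *PARP1*, *XRCC1*, *LIG3* and *POLB* had log2 fold changes between -0.04 and 0.09 and were not called. *MGMT* (chromosome 10, 129467190 to 129770983), which takes alkyl groups off guanine, was at 2.85, 2.75 and 2.76 log2 CPM against 2.69, 2.50 and 2.47, and fell by 0.24 (SE 0.078, adjusted p = 0.021), with the call lost without *ZMAT3*-WT replicate 1 or *ZMAT3*-KO replicate 2 or 3 (log2 fold changes of -0.20, -0.21 and -0.19, adjusted p up to 0.079).

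**Figure D3:**
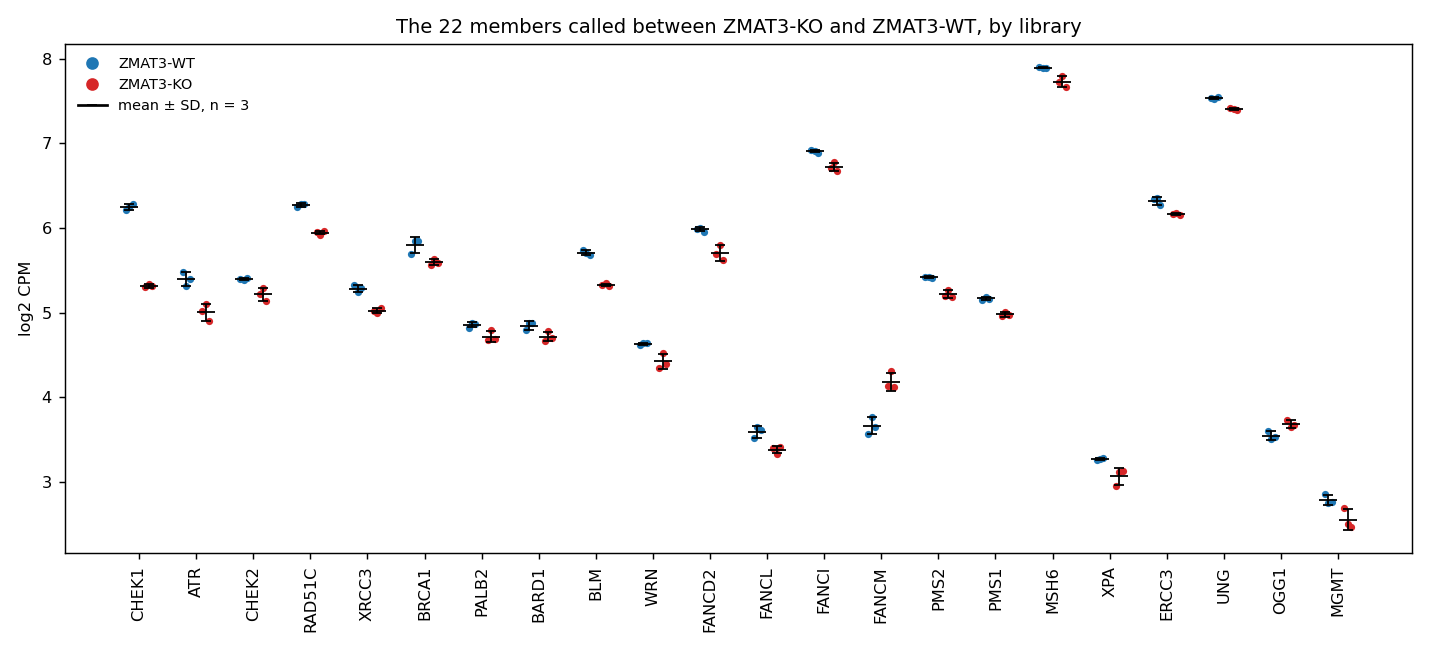
Log2 CPM of the 22 called members in each *ZMAT3*-WT (blue) and *ZMAT3*-KO (red) library, with the mean ± SD (n = 3) in black, ordered by role and then by change. *CHEK1* shows the widest gap, from between 6.21 and 6.28 to between 5.30 and 5.34, and *FANCM* and *OGG1* are the members whose red points lie above the blue ones.

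Other genes of the same pathways, from a list of 104 tested in this experiment, were lower in 39 cases (37.5%, against 30.1% of all genes) and higher in 18 (17.3%, against 28.7%), with a median log2 fold change of -0.05. The 3 of them that passed 1.5-fold were *CLSPN*, *RAD51B* and *APLF*. *CLSPN* encodes Claspin, the adaptor through which *ATR* activates *CHEK1*, and was at 6.56, 6.58 and 6.60 log2 CPM in *ZMAT3*-WT and at 5.12, 5.34 and 5.19 in *ZMAT3*-KO, a fall of 1.36 (SE 0.048, adjusted p = 1.5e-10). *RAD51B*, a relative of *RAD51C*, rose by 0.88 (SE 0.084, adjusted p = 2.0e-06). *APLF*, an end-joining accessory factor, rose by 0.63 (SE 0.17, adjusted p = 0.0060) from a level near 0 log2 CPM. Of 20 S phase and replication genes, 8 were lower (*MCM5*, *MCM7*, *CDC6*, *CDC45*, *PCNA*, *TYMS*, *CCNE2* and *POLA1*), with a median of -0.04, and their summed level was 5275 to 5335 CPM in *ZMAT3*-WT and 4962 to 5046 CPM in *ZMAT3*-KO. The part of these genes in the members' changes was not tested.

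Many repair genes share a start region with a gene on the opposite strand. Within 1000 bases, 21 members had such a neighbour, and 17 of the 22 pairs were measured in the *ZMAT3* table. The signs were the same in 7 of the 17 pairs. Both genes were called lower in 2 pairs, *PMS2* with *AIMP2* (-0.20 and -0.21) and *CHEK2* with *HSCB* (-0.19 and -0.33), and *FANCM* and its neighbour *FKBP3* were both called higher (0.52 and 0.18). In 3 pairs both genes were called in opposite directions: *RAD51C* with *TEX14* (-0.32 and 0.42), *PALB2* with *DCTN5* (-0.14 and 0.24) and *PMS1* with *ORMDL1* (-0.19 and 0.11). Spans of 27 members overlap another protein-coding gene, 7 of them on the same strand. On the opposite strand, *XRCC3* overlaps *KLC1* (0.10), and *OGG1* overlaps both *CAMK1* (-0.78) and *TADA3* (0.24). On the same strand, *UNG* overlaps *ACACB* over 10139 bases, and *ACACB* was lower like *UNG* (-0.27, adjusted p = 0.024). The part of overlapping genes in the members' values was not tested. The *ZMAT3* libraries were stranded, but whether strand was used in counting is not given in the sources used here.

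With sip53, few members passed the test and those that did were higher. limma on log2(FPKM + 0.1) called 3 of the 50 higher at an unadjusted p of 0.05 (6%, against 5.86% of the 14274 genes tested) and 0 lower (against 9.28%). After centring every library at its median, 3 members were again higher and 0 lower, against 7.85% and 7.34% of all genes. At an adjusted p of 0.05 no member was called (the smallest was 0.24), where 0.273% of all genes were. The members' median log2 fold change was 0.02, against -0.04 over all genes, with 25 members on either side of 0. The intervals were wide, and 8 of 50 lay within 1.5-fold of no change and 34 within 2-fold, against 1302 and 7829 of all 14274 genes. For most members a change of 1.5-fold could therefore not be told from none with 2 libraries a group.

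The 2 libraries of each group also differed much from one another. In 38 of 50 members (76%) the order of the first and second library was reversed between siCTRL and sip53, as in 74.4% of all genes. That count compares libraries within each group only. The mean difference between replicates exceeded that between groups in 31 members, and in 53.4% of all genes. *FANCG* of the Fanconi core, for example, was at 17.9 and 27.4 FPKM with siCTRL and at 26.6 and 18.2 FPKM with sip53, and *ATR* was at 7.04 and 12.9 against 10.2 and 6.13 FPKM. *XRCC1*, the scaffold of single-strand break repair, went the other way, at 23.7 and 14.4 FPKM against 15.8 and 27.8 FPKM, as did its ligase *LIG3*, at 19.2 and 12.8 against 10.4 and 16.2 FPKM, and *ERCC5*, at 10.2 and 6.88 against 6.35 and 11.7 FPKM. These 5 genes were chosen after their values were seen, and in each of them the difference between group means was smaller than the SD within either group.

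The called members, each past the unadjusted threshold of 0.05, were *RAD51AP1*, *RAD54L* and *MLH3*. *RAD51AP1* (chromosome 12, 4538798 to 4560047), an accessory factor of strand invasion in homologous recombination, was at 8.48 and 9.80 FPKM with siCTRL and at 16.4 and 12.9 with sip53. Both sip53 values were above both siCTRL values, with a log2 fold change of 0.67 (SE 0.21, 1.59-fold, adjusted p = 0.24). *RAD54L* (chromosome 1, 46246461 to 46278480), a motor protein that remodels DNA during homologous recombination, was at 9.35 and 11.9 against 18.4 and 14.9 FPKM. The groups did not overlap, and the log2 fold change was 0.65 (SE 0.22, 1.57-fold, adjusted p = 0.27). *LRRC41*, which overlaps *RAD54L* on the opposite strand, had a log2 fold change of -0.49 here and 0.56 between the clones. *MLH3* (chromosome 14, 75013769 to 75051532), a mismatch repair protein that also acts in meiotic crossing over, was at 3.43 and 4.51 against 7.58 and 5.68 FPKM, again without overlap, with a log2 fold change of 0.72 (SE 0.25, 1.65-fold, adjusted p = 0.28). All 3 calls were lost without the first siCTRL library (log2 fold changes of 0.57, 0.47 and 0.53) and without the first sip53 library (0.50, 0.49 and 0.52), and that of *RAD51AP1* also without the second siCTRL library (0.77). The call of *MLH3* was also lost with a minimum mean of 5 FPKM and with no filter on low values.

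**Figure D4:**
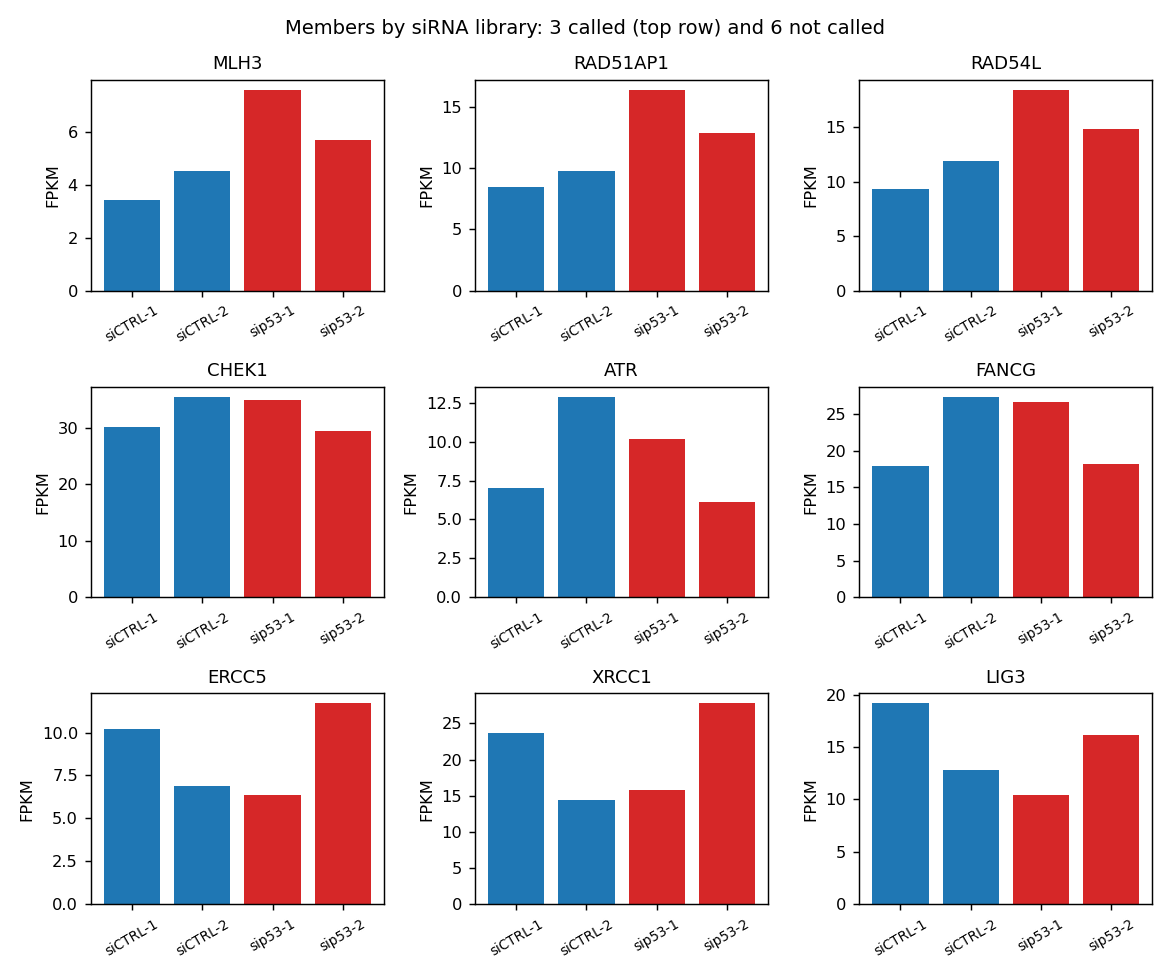
FPKM in the 2 siCTRL (blue) and 2 sip53 (red) libraries for the 3 called members in the top row and 6 members that were not called below, each on its own axis from 0. The top row has both red bars above both blue ones, while in *ATR*, *FANCG*, *ERCC5*, *XRCC1* and *LIG3* each group holds a high and a low library.

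The remaining homologous recombination genes ran from *RAD51D* at -0.43 (SE 0.25) to *XRCC3* at 0.43 (SE 0.24). The checkpoint kinases had log2 fold changes from -0.27 for *ATR* to 0.34 for *CHEK2*. *CHEK1*, the member that fell most between the clones, was at 30.1 and 35.5 FPKM with siCTRL and at 34.9 and 29.4 with sip53, a log2 fold change of -0.03 with a 95% interval from -0.53 to 0.47. Fanconi members ran from -0.23 (*FANCL*) to 0.34 (*FANCM*), helicases and end processors from -0.19 (*BRIP1*) to 0.37 (*WRN*), and end-joining genes from -0.43 (*LIG4*) to 0.29 (*XRCC6*). *TP53BP1* came nearest to the threshold among those lower, at 16.3 and 18.0 FPKM with siCTRL and at 13.2 and 12.9 with sip53 (-0.38, SE 0.17, adjusted p = 0.38). Nucleotide excision members lay between -0.21 and 0.13, base excision members between -0.49 (*OGG1*) and 0.18 (*XRCC1*), the other mismatch repair genes between -0.22 (*PMS2*) and 0.51 (*MSH3*), and *MGMT* at -0.04, with none called. *MSH3* was at 0.440 FPKM in both siCTRL libraries and reached the minimum mean of 0.5 FPKM only through sip53 (0.920 and 0.480 FPKM). The filter therefore favoured a positive value for *MSH3*, and its SE was 0.48.

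Of 97 other repair genes tested, 7 were lower (7.22%, against 9.28% of all genes) and 6 higher (6.19%, against 5.86%). *DDB2* and *XPC*, which find damage for nucleotide excision and are textbook p53 targets, were at 32.0 and 26.7 FPKM against 6.76 and 9.55, and at 19.8 and 18.8 FPKM against 10.6 and 9.89. In both genes the sip53 libraries lay far below the siCTRL libraries, at -1.85 (SE 0.24, adjusted p = 0.079) and -0.91 (SE 0.17, adjusted p = 0.13). The glycosylase gene *TDG* (-1.37), *TDP1* (-0.68), which frees trapped topoisomerase, and the translesion polymerase gene *POLH* (-0.62) were also lower, and the glycosylase gene *NEIL3* was higher (0.94), with adjusted p from 0.12 to 0.21. Of the 20 S phase genes, *RRM2* and *CCNE2* were lower and *CCNA2* higher, and their summed level was 1429 to 1438 FPKM with siCTRL and 1279 to 1306 FPKM with sip53.

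No member was called in both experiments, at an adjusted p of 0.05 between the clones and an unadjusted p of 0.05 with sip53. Of the members, 22 were called between the clones only, 3 with sip53 only and 25 in neither. Over all genes, 58.8% were called between the clones, and 5.86% higher and 9.28% lower with sip53. The share of all genes called in both was not counted, so the lack of overlap is a description only. Whether the effects differ between experiments was not tested, since the tables were normalized separately. By sign alone, 18 members were lower in both, 8 higher in both, 17 lower in *ZMAT3*-KO and higher with sip53, and 7 the reverse. Correlated over the 50 members, as a description only since genes of a cell are not independent, the log2 fold changes gave a Pearson's r of 0.04 and a Spearman's rho of -0.03. *ZMAT3* itself was lower in both, and with sip53 it was at 3.16 and 1.97 FPKM against 12.0 and 13.6 FPKM with siCTRL.

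**Figure D5:**
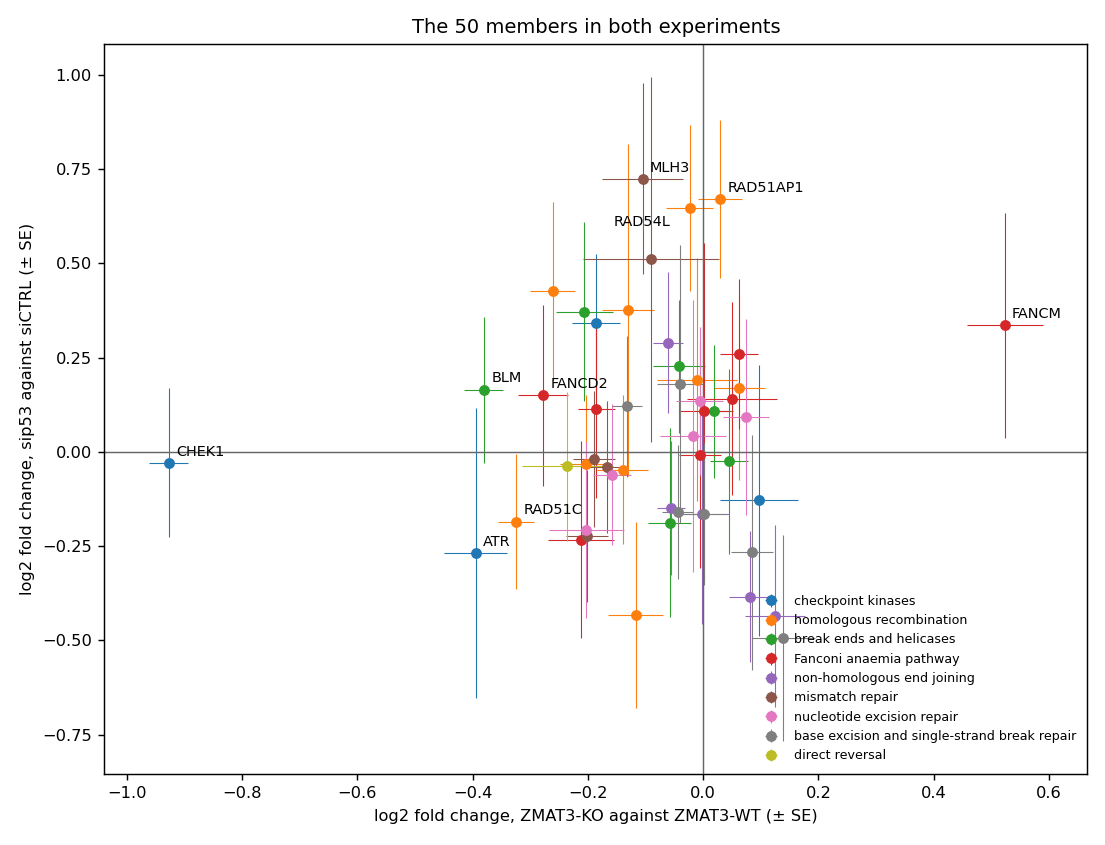
Log2 fold change of each of the 50 members in *ZMAT3*-KO against *ZMAT3*-WT (horizontal, ± SE) and in sip53 against siCTRL (vertical, ± SE), coloured by role. The members at the horizontal extremes, *CHEK1* at -0.93 and *FANCM* at 0.52, lie near -0.03 and 0.34 on the vertical axis, and those at the top, *MLH3*, *RAD51AP1* and *RAD54L*, lie between -0.10 and 0.03 on the horizontal axis.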

How the data were processed

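RNA-seq of 10 HCT116 libraries was analysed from the tables the authors deposited. In the *ZMAT3* experiment, the authors sequenced stranded, oligo(dT)-selected libraries and used Cutadapt for trimming, STAR for alignment to hg38 and RSEM for quantification. They deposited log2 CPM values. The step from RSEM output to these values is not given in the sources used here, and all 6 libraries share 1 distribution of values. The siRNA values the authors deposited were read as FPKM from the values, and the step that made them is not given in the sources used here. The submitters' processing notes name CASAVA 1.8.2, TopHat2 2.0.8 and FastQC 0.11.2 without roles. The deposited tables also hold the authors' own log2 fold changes, ratios (fold changes), p-values, mean signal, standard errors and test scores, none of which was used. There are no counts, so depth is unknown and no count model or counting interval was used.

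The tables were tested separately in R 4.3.3 with limma 3.58.1 (two-sided; lmFit and eBayes with trend; p-values adjusted by Benjamini-Hochberg over all genes): 13029 genes on the deposited log2 CPM without a filter, and 14274 of 17642 genes on log2(FPKM + 0.1) after a minimum mean of 0.5 FPKM. Fold changes on that scale understate the change of low genes. Members were called at an adjusted p of 0.05 between the clones and at an unadjusted p of 0.05 with sip53. The latter is the threshold of the study. For its count of genes changed between the clones the study also required 1.5-fold, which is given apart here. It set no fold threshold when it compared the knockout with cells given *ZMAT3* siRNAs. The scripts were tested on simulated data. The members, role groups, gene lists, motifs and tests were chosen with earlier results of these data known.

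Values per library are printed for members past 1.5-fold and for the member of each role group with the largest change among those called in an experiment, and for some others chosen after their values were seen. Other repair genes are named if they passed the test and 1.5-fold. Some genes of the lists are not reported here. Positions are from GENCODE release 44 on hg38, matched by symbol. Promoters are from RefSeq. Alternatives were another pseudocount, filter, centring or threshold, a block for the replicate number, a fit with no variance trend, and leaving out each library. A fit with crossed numbers was added after the data were seen. Samples with the same replicate number did not deviate together between the clones (correlations of -0.04, -0.02 and -0.09 across genes), and in the siRNA experiment they deviated in opposite directions (-0.62), so the numbers were not used to pair samples. Tables were handled with Python 3.11.15, pandas 2.3.3 and numpy 2.4.6, and figures drawn with matplotlib 3.10.9.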

Additional observations from a re-analysis of the deposited data

How the results depend on the processing

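Between the clones, the 22 called members stayed called under a pseudocount of 1 CPM, a minimum mean of 0 log2 CPM, centring on the median gene and no variance trend. The filter and the centring could change little. No member lay below that minimum, and the median difference in log2 fold change between the fits without and with centring was -0.0005. Leaving out each library in turn left 17 to 22 members called lower and 1 to 4 called higher (4 without *ZMAT3*-WT replicate 1 or *ZMAT3*-KO replicate 3, and 1 without *ZMAT3*-WT replicate 2 or 3 or *ZMAT3*-KO replicate 1). At an adjusted p of 0.01, 1 member was called higher, and with 1.5-fold required 1 was lower and 0 were higher. With sip53, leaving out a library left 0 to 4 members called higher (0 without the first library of either group) and 0 lower, an adjusted p of 0.05 left 0 higher, and without a filter on low values 1 was called lower. Depth is unknown, and the siRNA intervals exclude a change of 1.5-fold for 8 of 50 members only.

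With the replicate number as a block, 5 members were called higher between the clones and all 22 calls of the fit without it were made again, while with sip53 0 were called higher. No *ZMAT3*-KO library deviated most like the *ZMAT3*-WT library of its own number. All these correlations lay between -0.10 and 0.13, and with 3 libraries a group they cannot show whether the numbers stand for a batch. With the siRNA numbers crossed, 7 of 50 members were called higher and 2 lower, where 16.9% and 21.9% of all genes were.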
